A study of Mus musculus with 12 samples.

Results

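The 10 genes described here, Fos, Fosb, Jun, Junb, Egr1, Egr2, Atf3, Ier2, Nr4a1 and Arc, belong to the immediate early genes and were picked by name as 10 of the 38720 genes listed in each of the deposited tables. All 10 were listed in both tables, had reads in all 12 libraries and passed the filter on low values, a mean of 10 or more normalized reads in at least 1 group. RNA had been sequenced from 4 groups of P0 retinal cells with 3 libraries each, namely RGCs and non-RGCs of WT mice and of mKO mice, all under the C57/BL6 strain label. The mKO pups carried Math5Cre+ together with Ezh2f/f, so that Cre made under Math5 removes floxed Ezh2, the gene of the histone methyltransferase that deposits H3K27me3, in retinal cells that express Math5. This driver does not act in every RGC, so the mKO RGC fraction was a mixture of cells with and without recombination, and the sources used here do not state whether the pups of a library were pooled. Retinas were dissociated with papain and RGCs were captured on magnetic beads by CD90 (Thy1), and the cells that were left formed the non-RGC fraction. All groups therefore shared the dissociation and the capture.

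Immediate early genes are transcribed within minutes of a stimulus, from factors such as CREB and SRF that are already present in the cell, and need no new protein for it. Most encode transcription factors: Fos and Fosb pair with Jun or Junb to form AP-1, Egr1 and Egr2 are zinc finger factors, Atf3 is a stress-induced member of the ATF family, and Nr4a1 is an orphan nuclear receptor. Ier2 encodes a small nuclear protein, and Arc encodes a protein that acts at synapses in the trafficking of glutamate receptors. In the nervous system they are used as marks of recent neuronal activity, and the separation of a tissue into single cells is also known to induce them.

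The promoters of the members are shown because most of them held the TGACG core of the cAMP response element, which CREB and ATF factors bind. RefSeq promoter windows on GRCm38.p6, which run from 250 bases before to 50 bases after a transcript's start, were found for 7 of the 10 members and not for Egr1, Ier2 and Arc. The 150 bases before the start are given 5′ to 3′ on the strand of the gene for 5 of them, with capitals for a match on either strand to TGACG, to the full cAMP response element TGACGTCA, to the AP-1 element TGANTCA, to the EGR element GCGNGGGCG, to TATAAA or to the CArG box that SRF binds.
Fos, chr12:85473740-85473889, plus strand: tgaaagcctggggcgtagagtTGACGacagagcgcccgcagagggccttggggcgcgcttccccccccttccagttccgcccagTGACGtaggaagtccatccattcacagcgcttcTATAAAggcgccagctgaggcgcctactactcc
Junb, chr8:84978749-84978898, minus strand: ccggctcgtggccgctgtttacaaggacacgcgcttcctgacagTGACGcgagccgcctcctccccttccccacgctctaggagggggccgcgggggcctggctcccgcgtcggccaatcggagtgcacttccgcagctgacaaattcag
Nr4a1, chr15:101266696-101266845, plus strand: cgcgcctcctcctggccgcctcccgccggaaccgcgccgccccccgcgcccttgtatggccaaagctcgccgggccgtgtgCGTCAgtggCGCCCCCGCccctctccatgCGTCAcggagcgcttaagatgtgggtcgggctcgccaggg
Egr2, chr10:67537719-67537868, plus strand: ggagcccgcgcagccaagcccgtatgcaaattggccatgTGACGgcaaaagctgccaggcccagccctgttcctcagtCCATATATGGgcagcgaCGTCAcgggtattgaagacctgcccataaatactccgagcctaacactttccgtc
Jun, chr4:95052223-95052372, minus strand: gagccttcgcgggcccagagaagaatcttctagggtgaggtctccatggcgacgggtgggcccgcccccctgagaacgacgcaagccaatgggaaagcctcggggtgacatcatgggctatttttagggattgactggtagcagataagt
TGACG stood in the windows of 6 of the 7 members (Fos, Fosb, Junb, Egr2, Atf3 and Nr4a1), against 23% of the 27025 genes with a RefSeq window of the same length. In Fos it began at positions -129 and -66 from the start, with the TATAAA match at -33, and in Nr4a1 it occurred at -233, -213, -69 and -40. Egr2 held it at -111 and -55, on either side of a CArG box at -72, an element found in the windows of 1.81% of all genes. The EGR element stood in Fosb and Nr4a1, against 6.27% of all genes. TATAAA stood in Fos and Junb, against 15.7%, but in Junb it began at position 1, past the bases shown. The full TGACGTCA and the TGANTCA element were found in none of the 7 members, and in 2.03% and 8.97% of all genes. Egr2 had several windows, and its positions above are for the start at 67537869. These matches are letters in a window and were not measured as sites of binding.

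Reads on genes numbered from 7139633 to 13014004 per library, and the 10 members took 0.101% to 0.180% of them. In RGCs every mKO library had more reads (12391602 to 13014004) than every WT library (10600964 to 12328717). Depth and genotype therefore cannot be told apart in that fraction. The 3 libraries of a group carry the letters A, B and C by falling depth, since the deposited group means do not name them. The check of the targeted gene showed no reduction, and it cannot single out the floxed exons, since the tables give 1 value per gene. Ezh2 reads over all exons were no lower in the libraries labelled mKO, with a log2 difference from WT of 0.086 in RGCs (adjusted p = 0.637) and of 0.13 in non-RGCs (adjusted p = 0.584), and the groups overlapped in both. The labels of the fractions were borne out by 12 of 12 RGC marker genes, which were higher in the RGC fraction of both genotypes. The RGC fraction also held more RNA of microglia, with 10 of 10 markers higher in both genotypes. Both counts are at an adjusted p under 0.05 (limma), where 26.4% of all genes were higher in RGCs in WT and 29.1% in mKO. In bulk samples such as these, fewer cells of a type and less RNA per cell cannot be told apart. Within WT RGCs the members followed the order of the letters. Library C had the highest value of its group for 9 of them and the lowest for Nr4a1. Library A had the lowest value for the same 9 and the highest for Nr4a1. The marker sums of WT RGC library C, on a scaling common to the 12 libraries, also stood apart. Its progenitor markers summed to 25392 normalized reads, against 17503 in A and 18287 in B, and its photoreceptor markers to 8995, against 6797 and 6815. Its RGC markers had the lowest sum, 30440 against 33322 and 34581. The part of this in the members' values was not tested. In the WT non-RGC fraction, library C was lowest for Atf3, Egr2, Jun and Nr4a1, and its summed microglia markers stood at 20.5 against 307.5 and 344.6 normalized reads in the other libraries.

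On GRCm38 all 10 members are protein-coding, with exons that cover from 1522 bases (Ier2) to 6243 bases (Fosb) and gene spans of up to 47744 bases (Atf3). Junb and Ier2 both lie on chromosome 8, and Nr4a1 and Arc on chromosome 15. Jun is overlapped on the other strand by Junos, which was not analysed here.

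The level of most members was high in all groups. Per kilobase of exon, on a scaling common to the 12 libraries, WT RGCs had 1234 ± 54.0 normalized reads of Fos (SD, n = 3), 975 ± 25.6 of Jun and 906 ± 205 of Ier2. Nr4a1 followed with 805 ± 128, Egr1 with 745 ± 85.5, Junb with 742 ± 59.3 and Fosb with 494 ± 47.5. Egr2 (206 ± 62.0), Atf3 (120 ± 44.7) and Arc (65.2 ± 22.3) were the lowest. In this order Fos stood above Jun, Junb above Fosb and Fosb above Egr2 by more than the sum of the SDs of each pair, and the other neighbours did not. By its level per kilobase Fos lay at the 99.8th percentile of the genes with reads in WT RGCs, and Arc at the 58.9th.

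In WT non-RGCs the order opened with Ier2 at 1221 ± 87.9 normalized reads per kilobase, followed by Fos at 1016 ± 262 and Jun at 977 ± 141. Nr4a1, the fourth in RGCs, was the eighth here at 325 ± 67.4. Neighbours parted by more than the sum of their SDs between Egr1 (917 ± 92.2) and Junb (602 ± 108), between Fosb (527 ± 55.2) and Egr2 (365 ± 100.4), and between Nr4a1 and Atf3 (90.8 ± 56.2). In mKO RGCs the first 4 places were those of WT RGCs, with Fos at 784 ± 2.42, Jun at 655 ± 2.51, Ier2 at 575 ± 45.7 and Nr4a1 at 538 ± 18.9. In mKO non-RGCs, Ier2 was again first at 984 ± 286 and Arc last at 95.8 ± 12.2. The pairs Ier2 and Nr4a1, Junb and Egr1, and Egr2 and Atf3 did not part by that measure in mKO RGCs, and in mKO non-RGCs the neighbours that did were Egr1 and Junb, Nr4a1 and Atf3, and Atf3 and Arc. Atf3 and Arc closed the order in all 4 groups, and Ier2, Jun and Fos held the first 3 places in each.

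**Figure D1:**
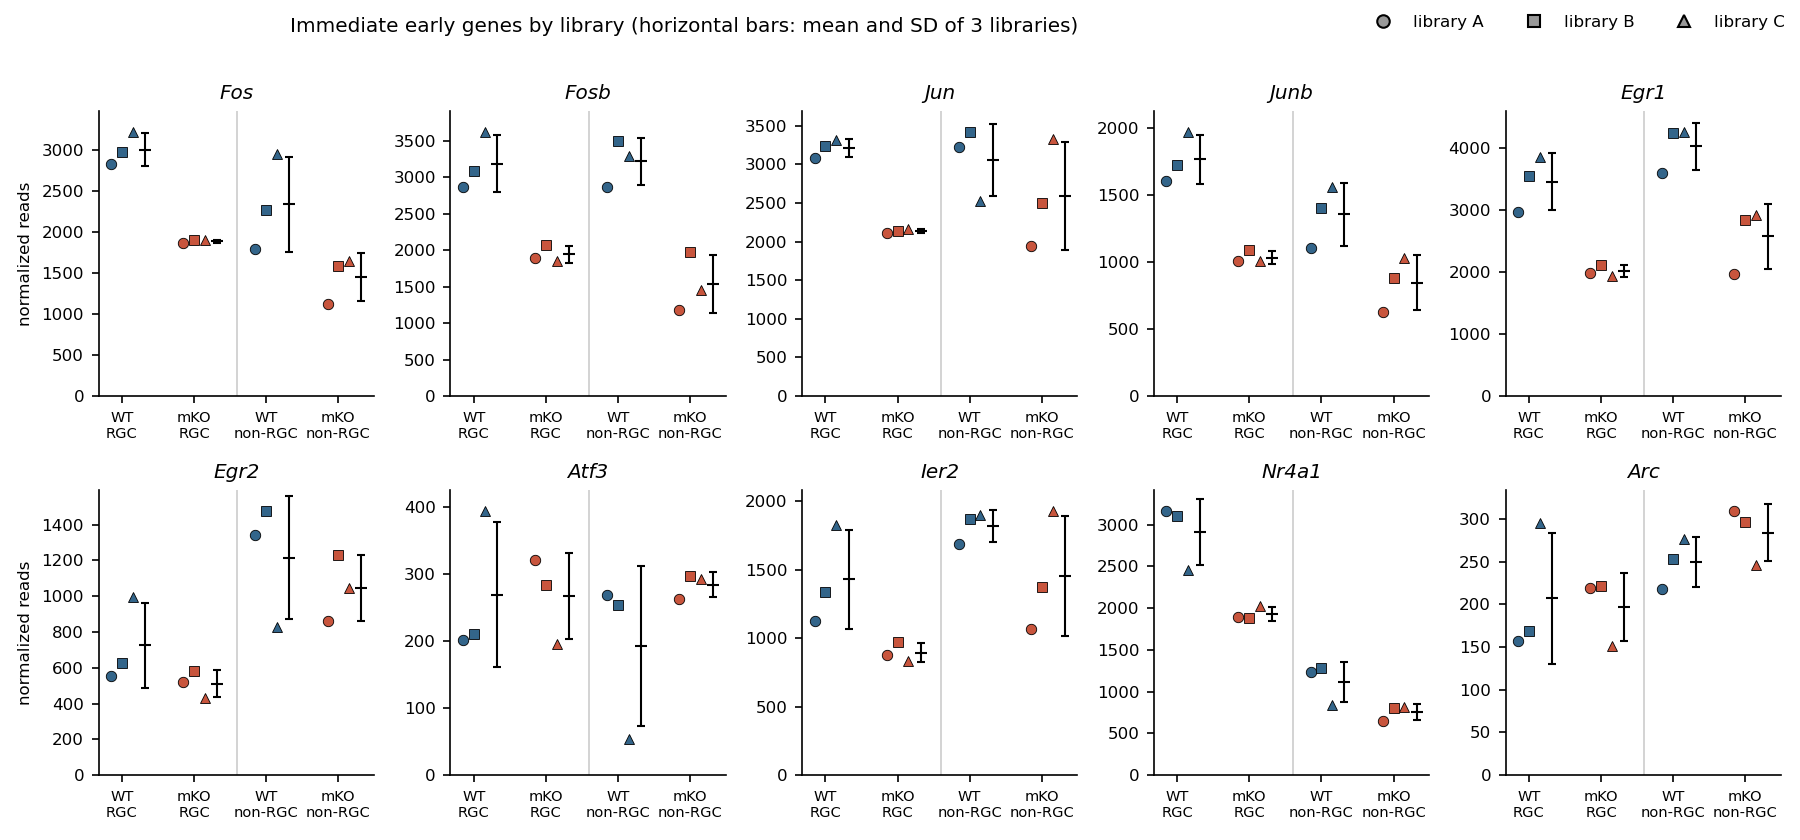
Normalized reads of each of the 10 members by library (points) in the 4 groups, with the group mean. In RGCs the mKO points of Fos, Fosb, Jun, Junb, Egr1, Ier2 and Nr4a1 lie below all WT points, while those of Egr2, Atf3 and Arc overlap with WT.

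The first question was whether the members differed between mKO and WT RGCs. In RGCs 7 of the 10 members were lower in mKO than in WT (limma, adjusted p under 0.05), against 21.2% of the 16085 genes tested, and none was higher, against 16.3%. The members' median was -0.62 on the log2 scale, against -0.0024 over all genes. At a fold change of at least 1.5 as well, 5 members were called, against 5.51% of the genes. Over all genes 3405 were called lower and 2622 higher, and with libraries scaled to their total reads these were 2238 and 3857, since that scaling moved the median of all genes to 0.12. The members' median was then -0.49, and the 7 calls held, while 3 in place of 5 also had a fold change of at least 1.5. These differences came with trends over all genes with the GC content of a gene and with the density of reads on it, which are described after the values. Once both trends were taken out, none of the 7 calls was made.

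Among the AP-1 genes, Fos had 1866, 1894 and 1901 normalized reads in the mKO libraries A, B and C and 2821, 2966 and 3210 in the WT libraries. The mKO libraries thus lay close together and below every WT library, at a mean of 1887 ± 18.3 against 2999 ± 197 (SD, n = 3), a log2 difference of -0.67 (SE 0.060, adjusted p = 0.000657). Fosb, which can be spliced into the stable ΔFosB, had 1897, 2076 and 1856 reads in mKO and 2864, 3083 and 3617 in WT. Its log2 difference was -0.71 (SE 0.094, adjusted p = 0.00178), with WT library C the highest. Jun, the partner of Fos in AP-1, had 2110, 2142 and 2164 reads in mKO and 3085, 3231 and 3312 in WT. That is a log2 difference of -0.58 (SE 0.050, adjusted p = 0.000651), with little spread in either group.

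Junb, an AP-1 member that often opposes Jun, had 1006, 1088 and 1005 reads in mKO and 1607, 1720 and 1966 in WT. The groups did not overlap, and the log2 difference was -0.77 (SE 0.084, adjusted p = 0.000946). Junb lies at chromosome 8, 84974484 to 84978718, where Prdx2 overlaps it on the other strand, and whether counting used the strand is not given in the sources used here. Prdx2, a peroxiredoxin, was itself at 1273 ± 44.2 normalized reads in mKO RGCs and 1789 ± 127 in WT RGCs, so reads of both genes cannot be told apart there.

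Of the other members, Egr1 had 1985, 2112 and 1928 reads in mKO RGCs and 2962, 3543 and 3855 in WT RGCs, a log2 difference of -0.77 (SE 0.099, adjusted p = 0.00157). All mKO libraries were below all WT libraries. Ier2 had 880, 969 and 835 reads in mKO and 1123, 1334 and 1828 in WT, with a wide spread in WT, and its log2 difference of -0.65 (SE 0.168, adjusted p = 0.0221) was the least certain of those called. Without mKO RGC library A, B or C its adjusted p was 0.0714, 0.0504 and 0.0815 in turn. Nr4a1 had 1893, 1877 and 2026 reads in mKO and 3160, 3108 and 2455 in WT. It was lower by a log2 difference of -0.58 (SE 0.102, adjusted p = 0.0050), and its WT library C was low where the other members were high.

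Egr2, Atf3 and Arc were not called, and their groups overlapped. Egr2, which acts in Schwann cells and in activated neurons, had 522, 581 and 431 reads in mKO and 551, 625 and 998 in WT (log2 difference -0.46, SE 0.224, adjusted p = 0.144). Atf3, which is induced in RGCs by injury to their axons, had 321, 284 and 196 reads in mKO and 202, 211 and 393 in WT (0.032, SE 0.295, adjusted p = 0.943). Arc had 219, 221 and 151 reads in mKO and 157, 168 and 295 in WT (-0.032, SE 0.272, adjusted p = 0.937). WT library C was above all the other RGC libraries for each of these 3 genes.

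The difference between mKO and WT went with how densely a gene was covered by reads. Duplicate reads had been removed by the authors, which bounds the reads a base of exon can keep. The highest densities were taken over 10647 genes that passed a floor on reads in every library and on exon length. Among these the highest was 1.502 to 1.531 reads per exon base in the mKO RGC libraries and 1.728 to 1.778 in the WT RGC libraries. Among all genes with a known exon length, the median log2 difference in RGCs was 0.32 in the lowest 20% by normalized reads per exon base, -0.080 between the 60th and 80th percentiles, -0.46 between the 95th and 99th and -0.57 in the top 1%. The share called lower in mKO went from 1.98% in the lowest 20% to 96.7% in the top 1%. The 7 called members all lay in the top 10%, from the 91.7th percentile (Fosb) to the 99.7th (Fos), and Arc, Atf3 and Egr2 lay at the 39.3rd, 55.7th and 68.5th.

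All 10 members lay below the median of the genes of their own density class in RGCs, and 3 of them (Fosb, Egr1 and Junb) below its 10th percentile. Exon GC content moved in the same way: the median log2 difference in RGCs fell from 0.41 in the genes of lowest GC content to -0.42 in those of highest, and the members had 51.4% (Egr2) to 62.6% (Junb) GC. With each library's trend with GC content taken out, 4 members were called lower in mKO RGCs, namely Fos (-0.55), Egr1 (-0.41), Fosb (-0.41) and Jun (-0.30). With the trend with read density alone taken out, an alternative chosen after seeing the data, 3 members were called, namely Fosb (-0.39), Egr1 (-0.32) and Junb (-0.31), and none of the 10 was called with a fold change of at least 1.5 after any of these removals. With both trends taken out, also chosen after seeing the data, none of the 10 was called and their median was 0.048. Fos was then at -0.16 (SE 0.052, adjusted p = 0.116), Fosb at -0.22 (SE 0.085, adjusted p = 0.166) and Egr1 at -0.13 (SE 0.093, adjusted p = 0.441). In that fit Jun (0.032), Nr4a1 (0.065), Junb (0.12) and Ier2 (0.20) had the opposite sign, and 827 of 15159 genes were called lower. Of the members 2 (Fos and Fosb) had an unadjusted p under 0.05, as had 3763 of the 15159 genes. Removing such trends also removes any true change that genes of like GC content or density share, so the lower level of the 7 members and the trends cannot be told apart here.

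**Figure D2:**
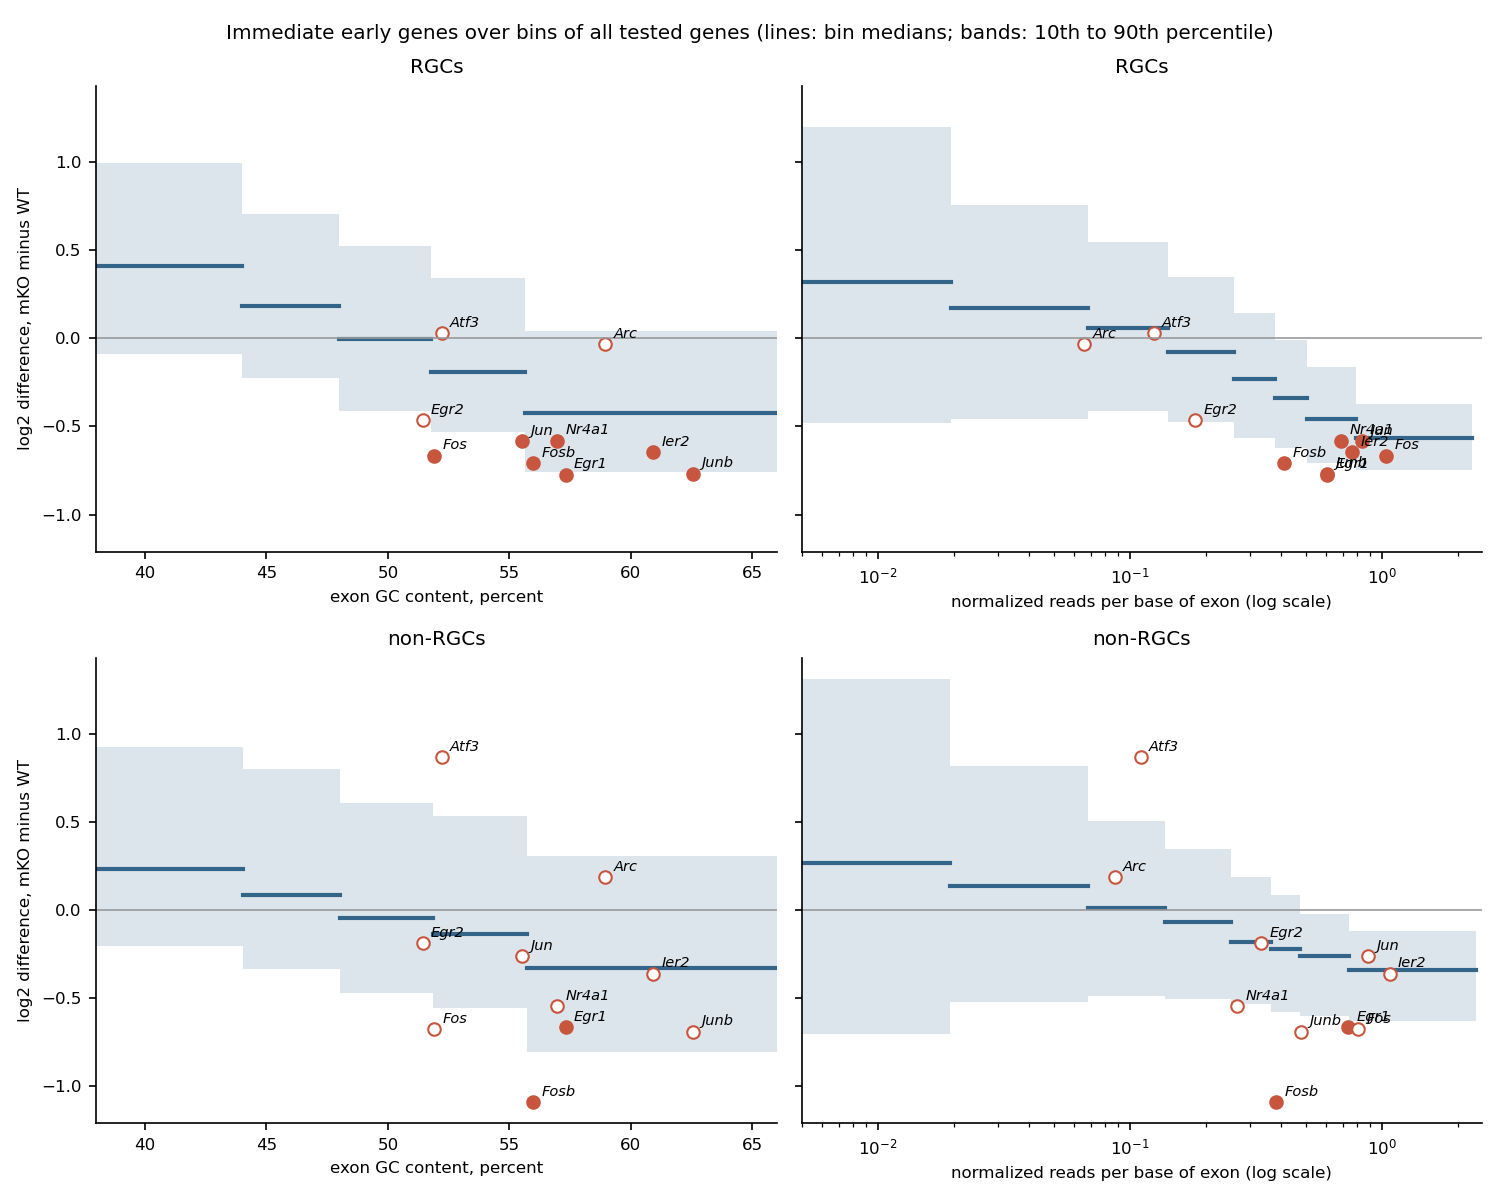
Log2 difference between mKO and WT of all genes tested, against exon GC content (%) and against normalized reads per exon base (log axis), in RGCs and non-RGCs, with the members marked. In RGCs the median falls from 0.32 in the lowest 20% by density to -0.57 in the top 1%, and the 7 members called lower lie in the top 10%.

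**Figure D3:**
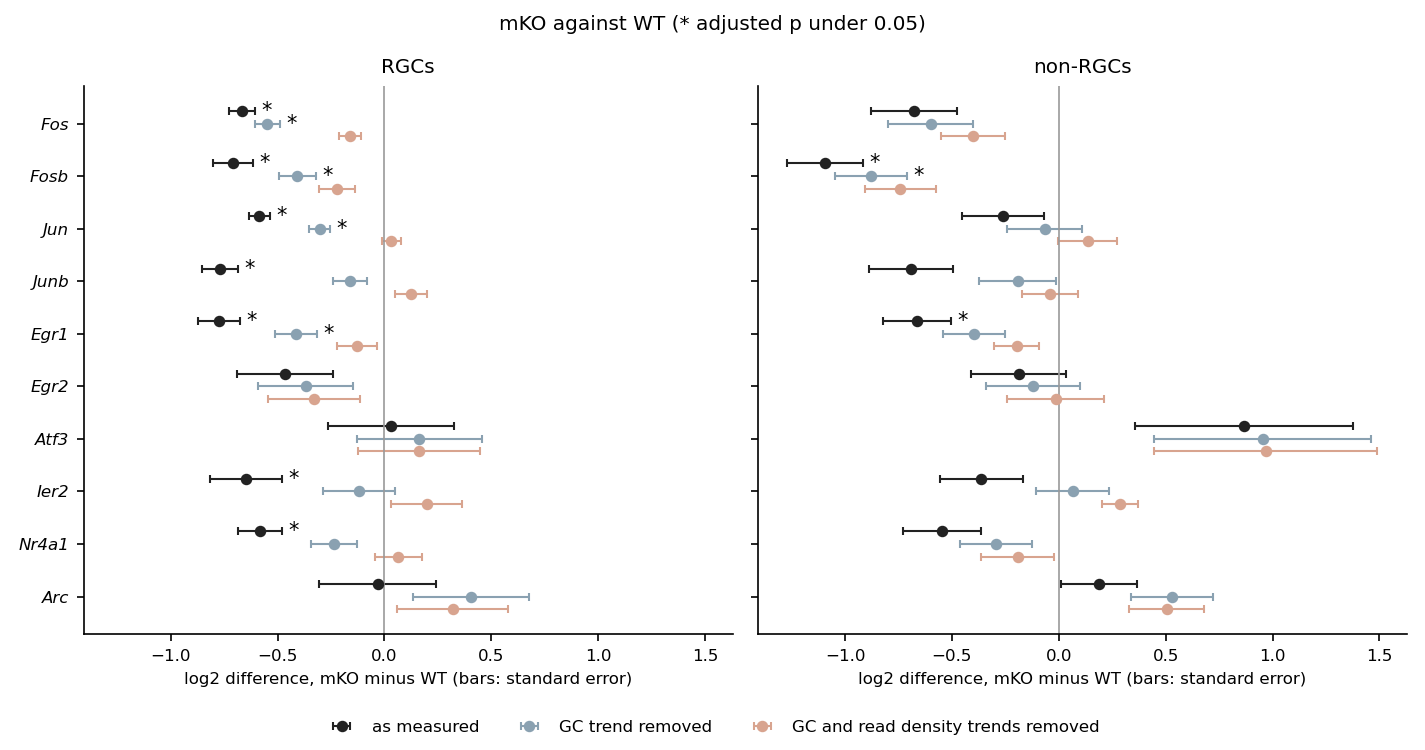
Log2 difference between mKO and WT of each member with its SE, in RGCs and in non-RGCs, as measured, with the GC trend removed, and with the GC and read density trends removed. As measured, 7 members are called lower in RGCs and 2 in non-RGCs, and with both trends removed none is called in either fraction.

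The same comparison was made in non-RGCs, where 2 of the 10 members were called lower in mKO, against 6.43% of the 15326 genes tested, and none was called higher, against 4.18%. The members' median was -0.45 on the log2 scale, against -0.026 over all genes. Scaling to total reads moved the median of all genes to 0.15 and the calls over all genes from 985 lower and 641 higher to 448 lower and 1346 higher. In 5 members (Fos, Fosb, Junb, Egr1 and Nr4a1) no mKO library reached a WT library in non-RGCs, as in 19.2% of the genes, and in RGCs this held for the 7 called members and 28.2% of the genes.

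Fosb had 1184, 1970 and 1462 normalized reads in the mKO non-RGC libraries and 2866, 3500 and 3295 in the WT ones. It was the member with the largest called difference, at -1.09 on the log2 scale (SE 0.177, adjusted p = 0.00963). Egr1 had 1964, 2832 and 2917 reads in mKO and 3590, 4234 and 4247 in WT, a difference of -0.66 (SE 0.159, adjusted p = 0.0315). Its mKO library A was low, as this library was for 9 of the 10 members, and its adjusted p was 0.0878 without mKO library B, 0.101 without WT library B and 0.0682 without WT library C. Fos had 1117, 1589 and 1648 reads in mKO and 1794, 2269 and 2946 in WT (-0.68, SE 0.203, adjusted p = 0.0605), and Junb 630, 882 and 1028 in mKO and 1102, 1404 and 1557 in WT (-0.69, SE 0.198, adjusted p = 0.0538). Nr4a1 had 646, 807 and 818 reads in mKO and 1234, 1280 and 843 in WT (-0.55, SE 0.183, adjusted p = 0.0815). Single libraries decided these 3 as well: Fos passed without WT library A (adjusted p = 0.0413), Junb without mKO library C (adjusted p = 0.0377) and Nr4a1 without WT library C (adjusted p = 0.025).

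The other members overlapped between the genotypes in non-RGCs. Jun had 1943, 2500 and 3326 reads in mKO and 3218, 3413 and 2529 in WT (-0.26, SE 0.193, adjusted p = 0.389). Ier2 had 1063, 1376 and 1926 in mKO and 1686, 1868 and 1902 in WT (-0.36, SE 0.193, adjusted p = 0.238). For Egr2 the reads were 863, 1231 and 1045 in mKO and 1344, 1476 and 827 in WT (-0.19, SE 0.221, adjusted p = 0.599). The overlap of these 3 genes came through library C of WT, mKO or both, and Ier2 passed without mKO library C (adjusted p = 0.0395). Atf3 was at 262, 297 and 292 in mKO and 269, 254 and 54.2 in WT, so that its difference of 0.87 (SE 0.509, adjusted p = 0.281) rested on WT library C and came to 0.12 without it. Arc had 309, 296 and 246 reads in mKO and 218, 253 and 276 in WT (0.19, SE 0.177, adjusted p = 0.508).

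The density of reads moved with these values as well. Among the same 10647 genes the highest density was 1.35 to 1.48 reads per exon base in mKO and 1.72 to 1.77 in WT non-RGCs. Among all genes with a known exon length, the median log2 difference went from 0.27 in the lowest 20% by density to -0.34 in the top 1%. In the densest 1% of genes 17.2% were called lower, against 1.55% in the lowest 20%. Fosb lay at the 91.1st percentile and Egr1 at the 98.97th, and 5 members (Fos, Fosb, Junb, Egr1 and Nr4a1) lay below the 10th percentile of their own density class. With the read density trend alone taken out Fosb was called (-0.87, adjusted p = 0.0227). With the GC and read density trends taken out none of the 10 members was called, with Fosb at -0.74 (SE 0.164, adjusted p = 0.0666), Fos at -0.40 (SE 0.152, adjusted p = 0.168) and Ier2 at 0.29 (SE 0.086, adjusted p = 0.114). These and Arc had an unadjusted p under 0.05 in that fit, as had 3278 of the 14473 genes.

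Whether the genotype difference itself differed between the fractions was tested as an interaction over the 12 libraries. None of the 10 members was called (limma, adjusted p from 0.573 to 0.991), against 0.097% of the 16502 genes called lower and 0% called higher, and none of the members had an unadjusted p under 0.05. The nearest was Fosb, whose difference was less negative in RGCs than in non-RGCs by 0.38 on the log2 scale (SE 0.213, unadjusted p = 0.0969).

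RGCs and non-RGCs were then compared within each genotype, on the scaling common to the 12 libraries. In WT, Nr4a1 was the 1 member called higher in RGCs, against 26.4% of the 16502 genes tested, and Egr2 the 1 member called lower, against 22.6%. In mKO, Nr4a1 was again higher, against 29.1% of the genes, and Egr2, Ier2, Egr1 and Arc were lower, against 25.4%. Nr4a1 and Egr2 kept these calls with the GC and read density trends removed. Without overlap, 1 member lay above (29.5% of the genes) and 1 below (27.8%) in WT RGCs, and 2 lay above (33.8%) and 3 below (32.6%) in mKO RGCs.

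Nr4a1 had 3099, 3068 and 2307 jointly scaled reads in WT RGCs and 1250.5, 1304 and 870.4 in WT non-RGCs. Every RGC library was above every non-RGC library, by 1.32 on the log2 scale in WT (SE 0.157, adjusted p = 1.92e-05) and by 1.28 in mKO (SE 0.157, adjusted p = 2.42e-05), where the reads were 1868, 1835 and 1962 against 674, 829.5 and 836. Egr2 had 541, 617 and 938 jointly scaled reads in WT RGCs and 1362, 1503 and 854 in WT non-RGCs. The WT fractions overlapped through library C of each, and the difference was -0.83 (SE 0.233, adjusted p = 0.0101), with an adjusted p of 0.0531 without WT RGC library A. In mKO Egr2 had 515, 568 and 417 reads in RGCs and 901, 1266 and 1068 in non-RGCs, with no overlap and a difference of -1.11 (SE 0.233, adjusted p = 0.0015).

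Ier2 had 868, 947 and 808 jointly scaled reads in mKO RGCs and 1110, 1415 and 1969 in mKO non-RGCs (-0.74, SE 0.189, adjusted p = 0.0052). In WT its difference was -0.45 (SE 0.189, adjusted p = 0.063). Egr1 was at -0.41 in mKO (SE 0.139, adjusted p = 0.0234) and at -0.30 in WT (SE 0.139, adjusted p = 0.0899), and Arc at -0.62 in mKO (SE 0.229, adjusted p = 0.0364) and -0.40 in WT (SE 0.229, adjusted p = 0.17). In mKO the call of Egr1 was lost without RGC library A or C or non-RGC library B or C (adjusted p from 0.0565 to 0.0966), and that of Arc without RGC library C or non-RGC library A or B (0.0933 to 0.163). In WT, Ier2 and Arc passed without RGC library C (adjusted p of 0.016 and 0.0161) and Fos without non-RGC library C (0.0148), and in mKO Jun passed without non-RGC library A (0.00674) and Fosb without non-RGC library B (0.00883). Fos, Fosb, Jun, Junb and Atf3 were called in neither genotype, at log2 differences from -0.32 (Jun in mKO) to 0.64 (Atf3 in WT). With the GC and read density trends removed, Ier2 (-0.68) and Egr1 (-0.47) were also called lower in WT RGCs, and Fos (0.49) and Fosb (0.35) higher in mKO RGCs.

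**Figure D4:**
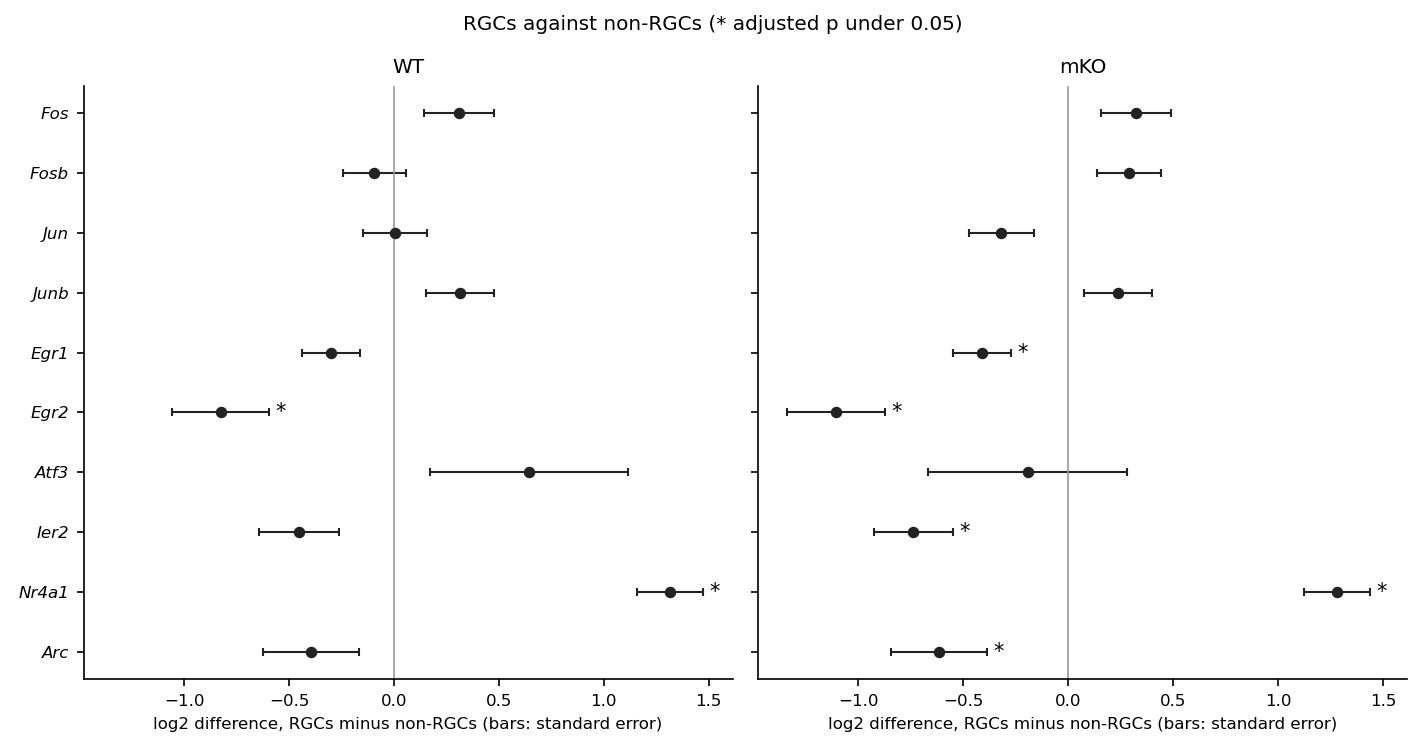
Log2 difference between RGCs and non-RGCs of each member with its SE, in WT and in mKO. Nr4a1 lies at 1.32 in WT and 1.28 in mKO, above all other members, and Egr2 at -0.83 and -1.11, below them.

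Markers of several cell types moved with these comparisons. The 10 microglia markers summed to 3081 to 4477 jointly scaled reads in WT RGCs and 1776 to 3780 in mKO RGCs, and to 20.5 to 344.6 in WT and 147 to 288 in mKO non-RGCs, where Aif1, Tyrobp and Trem2 were under a mean of 10 in both genotypes. The 12 RGC markers summed to 30440 to 34581 in WT RGCs, 23068 to 23852 in mKO RGCs, 5709 to 6129 in WT non-RGCs and 6275 to 8390 in mKO non-RGCs. Between mKO and WT RGCs, 10 of the 12 RGC markers were called lower (median -0.47), against the 21.2% of all genes given above, and with the GC and read density trends removed 2 were called lower and 2 higher (median -0.048). None of the 10 microglia markers was called in RGCs (median -0.56). For mKO against WT, 21.2% of all genes were called lower and 16.3% higher in RGCs, and 6.43% and 4.18% in non-RGCs. Markers of blood were called higher in mKO, 5 of 5 in RGCs (median 1.34) and 5 of 5 in non-RGCs (2.13), and with the trends removed 4 and 5 were. Their sum was 274 to 338 jointly scaled reads in mKO against 117 to 128 in WT RGCs, and 577 to 885 against 130 to 216 in non-RGCs. Markers of the pigment epithelium were called higher in 2 of 3 tested in RGCs and 4 of 4 in non-RGCs, and with the trends removed in 1 and 2. Of the endothelial and pericyte markers 1 was called lower in each fraction, of 10 and 9 tested (10% and 11.1%), with medians of -0.56 and -1.02. Of the 10 progenitor markers 3 were called lower in RGCs (median -0.43) and none in non-RGCs (-0.34), and with the trends removed no endothelial, pericyte or progenitor marker was called. Of 8 photoreceptor markers, 3 were called lower in RGCs (median -0.31) and 4 in non-RGCs (-0.31). Of 8 amacrine markers 4 and 2 were (-0.31 and -0.38). Of 8 astrocyte and Müller cell markers 2 and 1 were (-0.35 and -0.12). None of these was called higher. With the trends removed, 1 photoreceptor and 3 amacrine markers were called lower in RGCs and 1 photoreceptor marker higher. None was then called in non-RGCs. The part of these cells in the members' values was not tested. The summed members came to 18174 to 20606 jointly scaled reads in WT RGCs, 12100 to 12945 in mKO RGCs, 17550 to 20322 in WT non-RGCs and 10424 to 15032 in mKO non-RGCs.

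**Figure D5:**
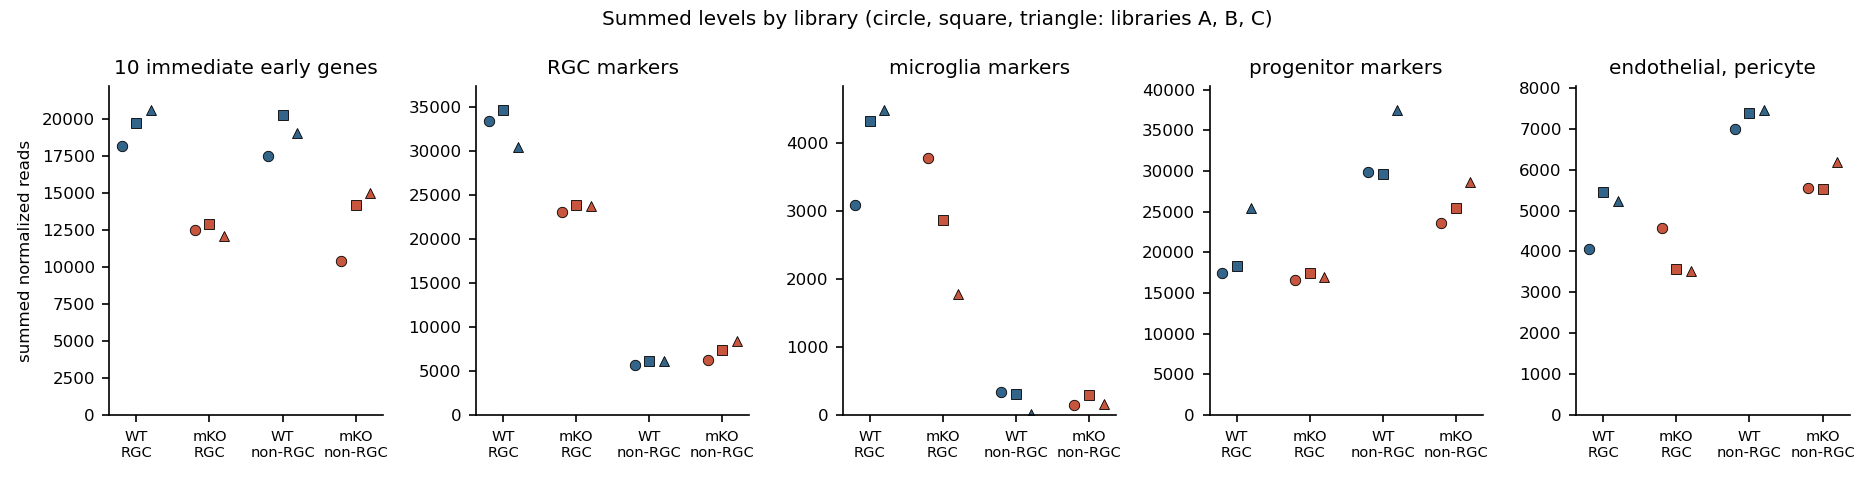
Summed jointly scaled reads by library of the 10 members and of markers of RGCs, microglia, progenitors and endothelial cells and pericytes. The members sum to at least 17550 in every WT library and to at most 15032 in every mKO library, while the RGC and microglia markers are higher in the RGC fraction.

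Other genes of the same response were followed through lists of genes. Of 41 other immediate early genes, 15 were called lower and 3 higher in mKO RGCs, or 36.6% and 7.32% of the list, against 21.2% and 16.3% of all genes, with a median of -0.33 on the log2 scale. The lower ones included Klf2 (-1.503, SE 0.357), a Krüppel-like factor of endothelial and immune cells, and Jund (-0.86, SE 0.089), the AP-1 subunit that is made without a stimulus. Also lower were Ier5l (-1.06), Cebpb (-1.04), Rhob (-0.72), Egr4 (-0.59) and Ier5 (-0.54). Ptgs2, the inducible cyclooxygenase, was higher (0.98, SE 0.207, adjusted p = 0.0102). Atf4, a relative of Atf3 that acts in the response to stress, was lower as well (-0.59, adjusted p = 0.00167). The other paralogues of the members were not called, with Egr3 at -0.94 (adjusted p = 0.168), Fosl1 at 0.22, Fosl2 at 0.19, Nr4a3 at 0.15 and Nr4a2 at 0.060.

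Among 21 feedback regulators, Atf4 included, 8 were called lower and 1 higher in mKO RGCs, or 38.1% and 4.76%. Lower were Zfp36l1 (-0.93) and Zfp36l2 (-0.83), which destabilize the short-lived mRNAs of this class, and Dusp5 (-0.68) and Dusp1 (-0.51), phosphatases of MAP kinases. Crem, whose inducible form represses transcription from cAMP response elements, was higher (0.54). Of 36 upstream factors and kinases, 13 were lower and 6 higher, or 36.1% and 16.7%, the latter near the 16.3% of all genes. Among them were Srf (-0.58, adjusted p = 0.0401), Mapk3, which encodes ERK1 (-0.59), and Mef2c (0.71, adjusted p = 0.0359). Of 17 heat shock genes, which mark protein stress, 7 were lower and 2 higher (41.2% and 11.8%), with Hspa8 at -0.60 and Hsp90ab1 at -0.54. With the GC and read density trends removed, 1 gene was called lower and 1 higher of the other immediate early genes, 1 lower of the feedback regulators, 2 lower of the upstream factors and 3 lower of the heat shock genes, and Atf4 was at -0.0059. Of the 26 called genes taken from these lists, 8 lost the call when 1 library was left out, among them Klf2 and Ier5 without mKO library C, Srf and Dusp5 without mKO library A, B or C, and Mef2c without any of those or WT library A.

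In mKO non-RGCs fewer of these genes were called. Of the other immediate early genes 5 were lower (12.2%, against 6.43% of all genes), among them Klf2 (-1.68, SE 0.209), Egr3 (-1.14) and Sik1 (-0.62), a kinase that CREB induces, and 2 were higher (4.88%, near the 4.18% of all genes), Bdnf (1.41, SE 0.195), a neurotrophin, and Sgk1 (0.87). Of the feedback regulators 5 were lower (23.8%), namely Zfp36l2, Socs3, Zfp36l1, Dusp4 and Dusp6, from -0.96 to -0.71. Of the upstream factors 4 were lower (11.1%), the CREB coactivators Crtc1 (-0.87) and Crebbp (-0.78), Mef2d (-0.82) and the SRF coactivator Mkl1 (-0.80). With the trends removed, Klf2 (-1.27) and Zfp36l1 (-0.70) were called among those named. Of the 15 called genes taken from these lists, 12 lost the call without mKO library B, all but Klf2, Bdnf and Zfp36l2, and 8 without WT library B. Calls over all genes fell as well, from 985 lower and 641 higher to 93 and 48 without mKO library B. Without WT library B they were 221 and 166. Of the RGC markers 8 of 12 were called higher in mKO non-RGCs (median 0.99), and 5 were with the trends removed (median 1.009), where the members' median was -0.027.

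Between the fractions, several other immediate early genes had larger log2 differences than any member. In WT 17 of the 41 were higher and 6 lower in RGCs (41.5% and 14.6%, against 26.4% and 22.6% of all genes), among them Npas4 (2.78, SE 0.161), the activity-dependent neuronal factor, Vgf (2.62) and Bdnf (2.36). Fosl2 (2.84) and Nr4a3 (2.35) were higher too, but part of their difference rested on the low WT non-RGC library C, without which they came to 1.95 and 1.64. In mKO 13 were higher, or 31.7%, near the 29.1% of all genes, and 7 lower (17.1%, against 25.4%), with Npas4 at 2.75 and Ptgs2 at 2.66. Thus the Nr4a1 paralogue Nr4a3 was higher in RGCs as Nr4a1 was, while Nr4a2 was at -0.11 in WT and -0.27 in mKO and was called in neither. Of the feedback regulators 11 were lower and 3 higher in WT RGCs, with Nab2, a corepressor of Egr factors, at -0.87 and its paralogue Nab1 at 1.35. Among the upstream genes the calmodulin-dependent kinase gene Camk2a (2.99 in WT and 3.61 in mKO) and Mef2c (3.63 and 3.77) were the highest, Mef2c coming to 2.95 in WT without non-RGC library C. Microglia markers were also higher in RGCs, as given above.

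The members did not vary as 1 block across libraries. Over the 12 libraries, Fos and Junb had a Pearson correlation of 0.98, and of 0.93 for their deviations from the group means, while Nr4a1 and Arc had -0.78 and -0.71. Egr1 and Ier2 were at 0.89 over the 12 libraries and 0.85 for the deviations, and Egr2 and Atf3 at 0.17 and 0.86. Of the 45 pairs, 19 exceeded 0.5 over the 12 libraries, and these libraries share genotype, fraction and depth. Among the genes outside the members whose pattern over the 12 libraries was most like the members' mean z-score were Rnf181 (r = 0.95), Ybx3, Arf4, Atf6b, Lgmn, Esrra, Ier5l, Slc25a10 and Samd1 (0.94), where 1% of all genes exceeded 0.89. Over the 6 RGC libraries alone they included Surf4 (0.999), Crabp1, E130012A19Rik, Egfl7, Dnmbp, Nrtn, Cdhr1, Map3k11 and Nr2e3, where 1% of all genes exceeded 0.985.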

How the data were processed

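Poly-A RNA was sequenced as single reads. Per the labels, reads were aligned with STAR 2.3.1z4 to mm10 and counted with featureCounts, and the deposited names add that primary alignments were kept and duplicates removed. The deposited tables hold the authors' signal values, which are reads per gene divided by size factors and then averaged within each group of 3 libraries. Columns of the authors' own comparisons (folds and tests) were not used.

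Reads of single libraries were recovered from the digits of those means, with exactly 1 solution for every gene with reads (25690, 23544, 24386 and 22931 genes for mKO RGCs, WT RGCs, mKO non-RGCs and WT non-RGCs). A control with the step shifted gave 0 solutions among 1496, 1352, 1435 and 1235 genes. It used only genes of low mean, below the means of the members. From simulated means, in the same order of groups, reads were recovered exactly for 2917 of 2921, 2917 of 2918, 2908 of 2910 and 2916 of 2921 genes. Because the tables held group means and not counts, recovered reads divided by the authors' size factors were analysed as log2(value + 1) in limma 3.58.1 with a mean-variance trend (R 4.3.3), keeping genes whose mean reached 10 in either group, with Benjamini-Hochberg adjustment and a call at an adjusted p under 0.05. A fold change on this scale understates that of low genes. Fractions, and the interaction, were compared in 1 fit of the 12 libraries on median-of-ratios size factors common to both tables. On simulated libraries with 200 changed genes, limma recovered 200, 200 and 193 for mKO against WT in RGCs and in non-RGCs and for the interaction, with 13, 9 and 13 false calls among 15853, 15124 and 15917 genes. The simulation held no trend with GC content or read density. It changed only genes well above the filter, by more than any member differed between mKO and WT RGCs. It therefore does not measure how often calls in these data are false. The libraries came from independent RNA extractions, and p-values measure the spread between them. Intervals of single shares are not given.

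Positions, exon lengths and GC content are from GENCODE M21 on GRCm38, the build mm10 names, matched by symbol for 92.7% of the genes with reads. Promoters are from RefSeq. Each library's trend with GC content, alone or with read density, was removed by lowess (spans 0.3 and 0.05), and read density was also removed alone, both removals of read density being chosen after seeing the data. The members and all lists were chosen with earlier results of these data known. All members were named, and of each related list up to 6 called genes by size of difference, any paralogue of a member, and the 10 genes most like the members, of which some are not reported here. Python 3.11.15, numpy 2.4.6 and pandas 2.3.3 were used.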

Additional observations from a re-analysis of the deposited data

Results flagged for a closer look

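The gene of the capture antigen, Thy1, had a genotype difference that itself differed between the fractions, by -4.60 on the log2 scale (limma interaction, adjusted p = 0.00117). In RGCs Thy1 was at 1424 ± 2.29 normalized reads in mKO and 2374 ± 156 in WT (SD, n = 3), and in non-RGCs at 79.9 ± 13.1 and 5.28 ± 3.78. With the GC and read density trends removed, its difference between mKO and WT was -0.15 in RGCs (limma, adjusted p = 0.219) and 3.83 in non-RGCs (adjusted p = 0.0174). None of the 10 immediate early genes was marked in this way. Of the 12 RGC markers, Thy1 included, 5 were called lower in the interaction (41.7%, against 0.097% of all genes), with a median of -1.41.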

How the results depend on the processing

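No paired analysis was possible because the libraries recovered from the group means carry no replicate number. Of 810 refits of single members, those that left out 1 library kept direction and call in 316, turned the sign in 21, gained a call in 9 and lost it in 14. The others kept both in 385, turned the sign in 27, gained a call in 16 and lost it in 22. Of those kept, 109 and 80 belonged to the interaction, where no member was called. For mKO against WT in RGCs, the other settings kept both in 69, turned the sign in 8 and lost the call in 13. Under other pseudocounts, filters and limma without the trend, the number of members called in RGCs was again 7.

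For mKO against WT in RGCs, members called numbered 4 with the GC trend removed, 4 with GC and length trends removed, 3 with the read density trend removed and 0 with GC and read density trends removed, against 7, and over all genes 1673, 1852, 1999 and 827 were then called lower, against 3405. With a fold change of at least 1.5 as well they numbered 3 scaled to total reads, 0 with each removal of trends and 4 to 6 with 1 library left out, against 5. In non-RGCs they numbered 1 scaled to total reads, 1 without the trend in limma, 1 with the GC trend or the read density trend removed, and 0 with GC and length or GC and read density trends removed, against 2, and genes called lower over all were 370 without the trend and 105, 685, 88 and 98 with these trends removed, against 985. For WT fractions they numbered 4 scaled to total reads and 4 with each of the 4 removals of trends, against 2. Over all genes 3949 were called higher and 4522 lower of 16591 scaled to total reads, against 4360 and 3733 of 16502. With GC and read density trends removed these were 4151 and 3804 of 15555. For mKO fractions the members called numbered 6 scaled to total reads, 4 without the trend in limma, where Arc lost its call (adjusted p = 0.0503), and 5, 6, 7 and 7 with GC, GC and length, GC and read density, and read density trends removed, against 5. Over all genes 4231 were called higher and 5663 lower of 16591 scaled to total reads, against 4806 and 4193 of 16502. With GC and read density trends removed these were 4510 and 4286 of 15555. The cause was not tested. Leaving out 1 library gave 6 to 7 for RGCs, 1 to 4 for non-RGCs, 1 to 4 for WT fractions and 3 to 5 for mKO fractions. Of 30 list sums, 15 moved by more than their SD scaled to total reads.

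Signs turned in these cases, on the log2 scale. In mKO against WT RGCs, Arc came to 0.090 scaled to total reads, 0.41 with the GC trend, 0.43 with GC and length and 0.32 with GC and read density trends removed, and in the last fit Ier2 came to 0.20, Jun to 0.032, Junb to 0.12 and Nr4a1 to 0.065. Leaving out 1 library, Arc ranged from -0.20 to 0.25 and Atf3 from -0.14 to 0.34. In non-RGCs Ier2 came to 0.065 with the GC trend removed and, with GC and read density trends removed, to 0.29, with Jun at 0.13, and Jun came to 0.094 with the read density trend removed. Between WT fractions Jun came to -0.077 scaled to total reads, -0.081 and -0.074 with GC, and GC and length, -0.11 with GC and read density and -0.094 with read density trends removed, and ranged from -0.12 to 0.091 with 1 library left out, where Atf3 ranged from -0.098 to 1.033. Between mKO fractions Atf3 ranged from -0.35 to 0.020. In the interaction, Fos came to -0.037 scaled to total reads, Junb to 0.14 with GC and length trends removed, and Nr4a1 to 0.044 and 0.11 with GC, and GC and length, removed. With GC and read density trends removed Egr1 came to 0.12, Junb to 0.11 and Nr4a1 to 0.13, and with the read density trend removed to 0.062, 0.057 and 0.064. With 1 library left out, Arc ranged from -0.38 to 0.043, Fos from -0.18 to 0.19, Junb from -0.27 to 0.070 and Nr4a1 from -0.17 to 0.15.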
